A study of Homo sapiens with 17 samples.

Results

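CHP-134, an established human neuroblastoma line in which the oncogene MYCN is amplified, was exposed to a retinoic acid in a dish and as a tumor in mice, and the difference between both responses was measured gene by gene. The measure is the tumor effect (RA tumors minus control tumors) minus the 6 day effect in culture (ATRA-treated cells minus DMSO cells), both as log2 fold changes, and it asks which parts of the late culture response are absent, weaker or opposite in tumors. It rests on 13 of the 17 libraries of the series, chosen by their labels. These are 2 libraries of cells given the solvent DMSO, 2 of cells kept for 6 days in all-trans retinoic acid (ATRA) at 2 µM, 5 of control tumors and 4 of RA tumors.

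All tumors grew under the skin of female athymic nude mice, about 12 weeks old, which lack mature T cells and keep other immune cells, from luciferase-labeled CHP-134 cells. RA tumors came from mice given 13-cis-retinoic acid by mouth at 25 mg/kg per dose, 2 doses per day. The labels call the control tumors untreated, and the study's text calls them vehicle-treated. ATRA and 13-cis-retinoic acid are stereoisomers. The drug, the dose and the time of exposure thus all differ between culture and tumors, and the time from the last dose to collection is stated as within 2 weeks for the CHP-134 tumors in which drug levels were measured, not for the sequenced ones. The study states that most CHP-134 cells die within 6 days of ATRA and that the survivors look like neurons, so the 6 day libraries are of surviving cells. The study calls the 2 replicates of the culture time course independent. Every library is of 1 cell line.

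Retinoic acid enters the nucleus and binds the receptors RAR and RXR, which sit on DNA as pairs and switch on their target genes, including the gene of the receptor RARβ and genes that bind and degrade the drug itself. In neuroblastoma, a tumor of the developing sympathetic nervous system, it can stop cell division and drive cells to extend neurites or to die. ID proteins, which bone morphogenetic protein (BMP) signals induce, hold back the transcription factors of differentiation.

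Counts per library ranged from 32201873 to 39422897 in the 4 libraries of cells and from 17266558 to 29078889 in the 9 of tumors. Cells and tumors were prepared with different kits. A factor that acts alike on a gene in all libraries of a kit cancels in each effect and in the difference, but levels in cells and in tumors are set across the kits, and there the kit and the setting cannot be told apart. Many genes overlap others on the same or the opposite strand, the strand setting of the counting is not given in the sources used here, and sizes of such genes (RARB, SOX9, TBX2, CRB1 and ROBO2 among those below) are uncertain. Levels are given in CPM, the usual depth-scaled count, with library sizes adjusted by TMM factors. Replicates in culture were close, with a coefficient of variation of 2.65% against 14.54% in tumors. The main test shares each gene's estimate of spread between cells and tumors. Errors of tumor effects thus draw on the closer culture replicates and can be too small, and those of 6 day effects can be too large. The tumors were not uniform. Over the 4049 genes that rose at 6 days, the median deviation from the mean of all 9 tumors on a log2 scale (pseudocount 0.5 CPM) was between −0.07 and −0.027 in control tumors, between 0.077 and 0.12 in RA tumors 1 to 3, and −0.011 in RA tumor 4. Control tumor 4 held the most fibroblast marker RNA and control tumor 1 the most muscle RNA, as described with the marker lists. Without RA tumor 4 the tumor effect had 317 calls in place of 157, and values that depend on either library are given beside the results.

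The tumor effect was small beside the 6 day effect. A gene was called with an FDR under 0.05 by edgeR's quasi-likelihood test and more than a 2-fold change. Of 25787 genes tested, 4049 rose (15.7%) and 2360 fell (9.15%) after 6 days of ATRA, while 110 rose (0.427%) and 47 fell (0.182%) in RA tumors. The difference itself was called for 2005 genes that were higher in tumors than the culture effect would give (7.78%) and for 3372 that were lower (13.1%). The median over all genes was −0.12 for the difference, −0.008 for the tumor effect and 0.015 for the 6 day effect, all on the log2 scale. Replicate number as a block left 58 rises and 28 falls in tumors, and leaving out RA tumor 2 left 59 and 19. By edgeR's test 4835 genes had an unadjusted p under 0.05 in the tumor effect. Below, list members that pass the FDR at under 2-fold are counted without the share of all genes that do so. Such counts are descriptions and are not set against a general rate.

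**Figure D1:**
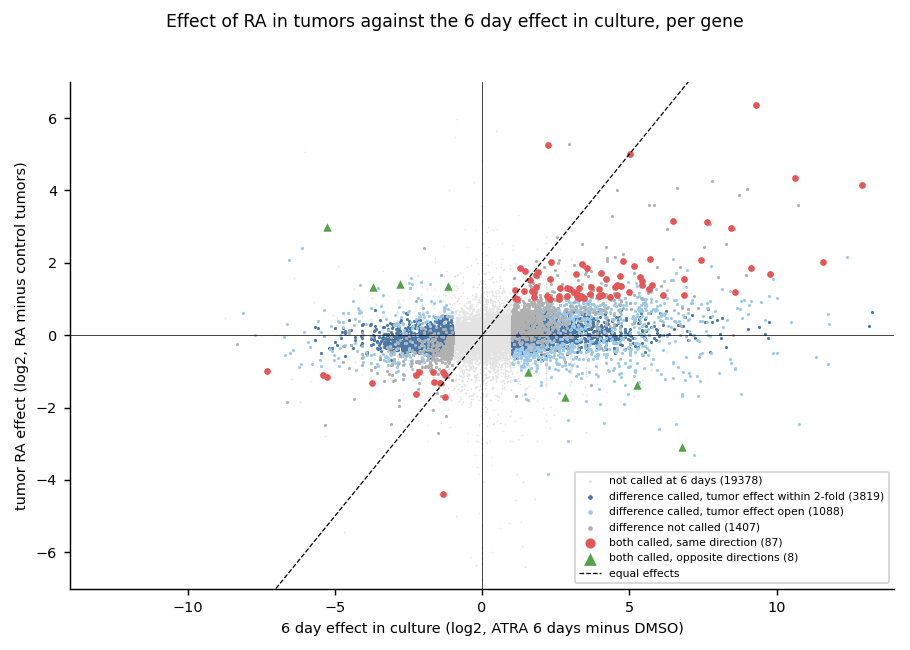
Log2 tumor RA effect (vertical axis) against the log2 6 day effect in culture (horizontal axis), with a point per gene, colors for the class of each gene and a dashed line where both effects are equal. Most genes called at 6 days lie near 0 on the vertical axis, and 87 are called in both settings in the same direction and 8 in opposite directions.

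Of the 4049 genes that rose in culture, 3067 (75.7%) were not called in tumors and had a called difference. For 2185 of these (54% of the 4049) the 95% interval of the tumor effect lay within a 2-fold change either way, so that a change of the culture size was outside it. For the other 882 the interval reached past 2-fold, and the tumors could not bound the effect. The difference was not called for another 905 genes without a tumor call. The same direction was called in tumors for 73 (1.80%), of which 48 were weaker than in culture, 25 did not differ by the test and 0 were stronger by edgeR's test of the difference.

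Of the 2360 genes that fell in culture, 1840 (78%) were not called in tumors and had a called difference, with 1634 bounded within 2-fold. The difference was not called for 502 more. The same direction was called for 14 (0.593%), of which 5 were weaker, 8 did not differ by the test and 1 was stronger. That 1, named after its values were seen, is AC015878.2, with 9 counts over the control tumors and 0 over the RA tumors. Part of the 6 day response was hardly expressed in tumors at all. Of the genes that rose, 1316 were under 1 CPM in the means of both tumor groups, as were 369 of those that fell. Among the 2733 and 1991 that remained, the shares with a called difference and no tumor call were 80.2% and 83.3%.

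The small tumor effects leaned the way of the culture. The tumor effect was above 0 for 68.6% of the genes that rose at 6 days, against 48.2% of all genes, and below 0 for 75.5% of those that fell, against 51.6% of all. Their medians were 0.16 and −0.14, where the culture medians were 1.99 and −1.65. Across all 25787 genes the effects correlated weakly (Pearson r 0.19, Spearman rho 0.25). Genes are not independent replicates and share libraries, so this is a description. The tumor effect grew little with the culture effect: its median was 0.13 for genes that rose by 1 to 2 log2 units in culture, 0.20 for those at 2 to 4 and 0.29 for the 628 above 4. On the falling side it was −0.12, −0.21 and −0.11.

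**Figure D2:**
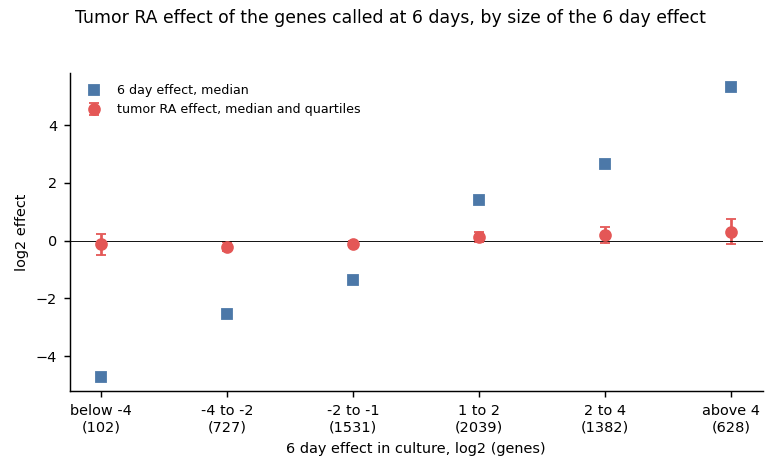
Median log2 effect of the genes called at 6 days, in 6 bins of their culture effect (horizontal axis, with the number of genes): blue squares are the 6 day effect and red points the tumor RA effect with its quartiles. The culture medians span −4.72 to 5.31, and the tumor medians stay between −0.21 and 0.29.

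Some retinoid genes rose in tumors as in culture, by less. RARB, the receptor gene that retinoic acid switches on through a pair of half-sites in its own promoter, was at 0.982 and 0.750 CPM in DMSO cells and at 27.8 and 28.4 CPM at 6 days. In control tumors it was at 3.94, 3.79, 3.90, 2.85 and 3.46 CPM and in RA tumors at 7.66, 9.75, 6.85 and 8.49 CPM. The tumor groups do not overlap. It rose in both settings, by 5.00 ± 0.21 in culture and by 1.20 ± 0.12 in tumors (log2 ± SE, FDR 1.37e-05), and the difference was −3.81 ± 0.24. Its call in tumors held under all 20 alternatives.

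The response element is shown because RARB was the only matched gene, of those that rose in both settings, whose RefSeq promoter window around a start (GRCh38.p14, both strands searched) held a DR5 element, that is 2 retinoid half-sites spaced by 5 bases. CYP26A1, a gene of retinoic acid breakdown with the same element, is shown beside it. Capitals mark the DR5, read on the gene's own strand in RARB and on the opposite strand in CYP26A1. The stretches are chr3:25428170-25428262, plus strand, with the element from 53 to 37 bases before the start, and chr10:93073797-93073825, plus strand, with the element from 90 to 74 bases before a start.
RARB: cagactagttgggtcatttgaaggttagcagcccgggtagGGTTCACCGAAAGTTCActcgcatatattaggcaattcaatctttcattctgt
CYP26A1: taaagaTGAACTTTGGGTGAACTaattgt
The element was in 0.0883% of all 35116 windows, in 1 of the 56 windows matched to the genes that rose in both settings, and in 4 of the 2255 windows matched to genes that rose in culture without a tumor call and with a called difference. These matches describe the letters in a short window and say nothing of binding.

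CYP26A1 itself was close to silent. It had no count in DMSO cells, 0 and 0.0321 CPM at 6 days, 0.108, 0.664, 0, 0.407 and 0.419 CPM in control tumors and 0.951, 0.773, 1.19 and 0.326 CPM in RA tumors. Its tumor effect of 1.29 ± 0.58 was not called (FDR 0.225). CYP26B1, a second enzyme that degrades retinoic acid, rose from 0.655 and 0.281 CPM to 43.6 and 44.5 CPM in culture (6.51 ± 0.43). In tumors it ranged from 0.314 to 0.764 CPM without and from 0.442 to 1.96 CPM with RA, and these groups overlap (0.98 ± 0.36, FDR 0.128).

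Of 19 tested genes of retinoid action and metabolism, 12 rose and 1 fell in culture, 2 rose in tumors, and the difference was lower for 11 and higher for 1. Over all genes, 15.7% rose and 9.15% fell in culture, 0.427% rose in tumors, and the difference was lower for 13.1% and higher for 7.78%. The list median was 2.18 in culture, 0.37 in tumors and −1.31 in the difference. CRABP1 and CRABP2, carriers of retinoic acid in the cell, rose by 5.39 ± 0.29 and 3.62 ± 0.28 in culture. In tumors CRABP1 passed the FDR at under 2-fold (0.61 ± 0.16, FDR 0.0366) and CRABP2 did not (0.59 ± 0.23, FDR 0.173). DHRS3, a retinal reductase gene, had 1 count over both DMSO libraries and 105 at 6 days, a ratio of 117 with a counting interval of 20.6 to 4680, and its tumor effect of 2.10 ± 0.76 missed the FDR (0.0723). RET, the receptor of GDNF and a known retinoic acid target in neuroblastoma, went from 0.819 and 0.843 to 27.5 and 27.0 CPM in culture. It was at 1.32 to 2.7 CPM in control and 3.27 to 5.15 CPM in RA tumors, groups that do not overlap (0.88 ± 0.18, FDR 0.00674), and the difference was −4.15 ± 0.33. Of the receptors and their cofactors, RARA was at 41.1 to 58.1 CPM in control and 67.3 to 89.3 CPM in RA tumors (0.67 ± 0.10) and rose by 2.08 ± 0.14 in culture. Of these 10 genes 4 rose in culture, 0 were called in tumors by edgeR (3 passed the FDR at under 2-fold), and the difference was lower for 4.

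A set of genes rose in tumors about as much as in culture. SOX9, a transcription factor of neural crest and glia, was at 2.73 and 2.75 CPM in DMSO cells, 13.0 and 14.7 CPM at 6 days, 1.08, 2.37, 1.38, 2.14 and 1.26 CPM in control tumors and 9.06, 8.32, 5.92 and 4.21 CPM in RA tumors. The effects were 2.03 ± 0.24 in tumors and 2.34 ± 0.29 in culture, with a difference of −0.31 ± 0.38. RGCC, a regulator of cell cycle progression, was at 1.47 and 1.03 CPM with DMSO, 4.66 and 4.42 CPM at 6 days, 3.31 to 6.12 CPM in control tumors and 13.9 to 16.1 CPM in RA tumors. Its effects were 1.67 ± 0.14 and 1.85 ± 0.24, with a difference of −0.17 ± 0.27. For both genes the RA tumors lie wholly above the control tumors, and both calls held under all 20 alternatives. PHOX2A, a master regulator of noradrenergic neurons chosen here after its values were seen, rose by 1.01 ± 0.18 in tumors and 1.18 ± 0.20 in culture, and its tumor call held in 15 of 20 alternatives. The interval of each difference still allows a moderate gap, and a difference that was not called does not show equal effects.

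Other shared rises were smaller in tumors. LOXL4, a lysyl oxidase that cross-links matrix, was at 0.943 to 1.62 CPM in control tumors and 3.40 to 6.38 CPM in RA tumors (2.10 ± 0.21), and went from 3.06 and 2.90 to 153 and 157 CPM in culture (5.70 ± 0.20). FAM163A rose by 2.05 ± 0.20 and 4.79 ± 0.24 in tumors and culture, LIX1 by 1.93 ± 0.29 and 5.17 ± 0.41, and PLCL1 by 1.62 ± 0.19 and 5.36 ± 0.33. ELFN1, a synaptic adhesion gene, rose by 1.87 ± 0.39 and 3.58 ± 0.39, but its difference call (FDR 0.0265) held in 11 of 20 alternatives, not with DESeq2, the replicate block or only the 13 libraries, and its tumor call was lost with the block (FDR 0.112). NGFR, the low-affinity receptor of nerve growth factor, was at 3.29, 4.41, 2.00, 4.63 and 2.46 CPM in control tumors and 15, 8.98, 8.88 and 9.24 CPM in RA tumors (1.63 ± 0.22), against 4.67 ± 0.36 in culture. ENPP2, which makes the signaling lipid lysophosphatidic acid, showed the widest gap of these. It reached 2725 and 2744 CPM at 6 days from 4.64 and 5.19 CPM (9.12 ± 0.33), while RA tumors were at 4.53, 4.75, 4.46 and 1.57 CPM and control tumors at 0.432 to 1.78 CPM. RA tumor 4 thus lies inside the control range, and the ENPP2 call (1.85 ± 0.42, FDR 0.0193) was lost in 5 of 20 alternatives. ADH1B and ADH1C, neighboring alcohol dehydrogenase genes, had no count with DMSO and were up at least 320-fold and 66.7-fold at 6 days, on a floor of 3 counts over the group that covers counting error only. The tumor effect of ADH1B was 2.02 ± 0.61 (FDR 0.0316) and its call held in 10 of 20 alternatives. ADH1C had 2 counts in control and 191 in RA tumors (ratio 95, counting interval 26 to 790), a call lost with DESeq2, and its neighbor ADH1A, up at least 371-fold in culture, was not called in tumors (0.30 ± 0.58). ADH1C was named after its values were seen.

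Of the 87 genes called in both settings in the same direction, 33 kept their tumor call without each of the 13 libraries in turn, and 22 under all 20 alternatives. With the replicate block 45 of the 87 kept it, and without RA tumor 2 it was 49. In these 87, 73 rose and 14 fell. The 5 falls that were weaker in tumors were those of ARHGAP36, IGSF1, STC1, CD44 and SLC24A3, the last 4 named after their values were seen. ARHGAP36, an activator of Hedgehog signaling that blocks protein kinase A, was at 229 and 227 CPM with DMSO, 1.62 and 1.25 CPM at 6 days, 135, 101, 148, 133 and 170 CPM in control tumors and 36.1, 60.1, 69.1 and 107 CPM in RA tumors. It fell by 7.31 ± 0.57 in culture and by 1.00 ± 0.24 in tumors (FDR 0.0417), the largest positive difference among protein-coding genes over 5 CPM (6.31 ± 0.62). RA tumor 4 overlaps the control range, and the tumor call sits at the 2-fold threshold and held in 6 of 20 alternatives. IGSF1, a membrane protein of the immunoglobulin family, fell by 1.11 ± 0.18 in tumors and 5.40 ± 0.30 in culture, and STC1, a secreted glycoprotein, by 1.15 ± 0.24 and 5.27 ± 0.42. The tumor call held in 18 of 20 alternatives for IGSF1, 15 for STC1, 13 for CD44 and 14 for SLC24A3, whose difference call held in 15. It was lost without RA tumor 2 for STC1, CD44 and SLC24A3, and without RA tumor 1 for IGSF1, STC1 and SLC24A3.

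**Figure D3:**
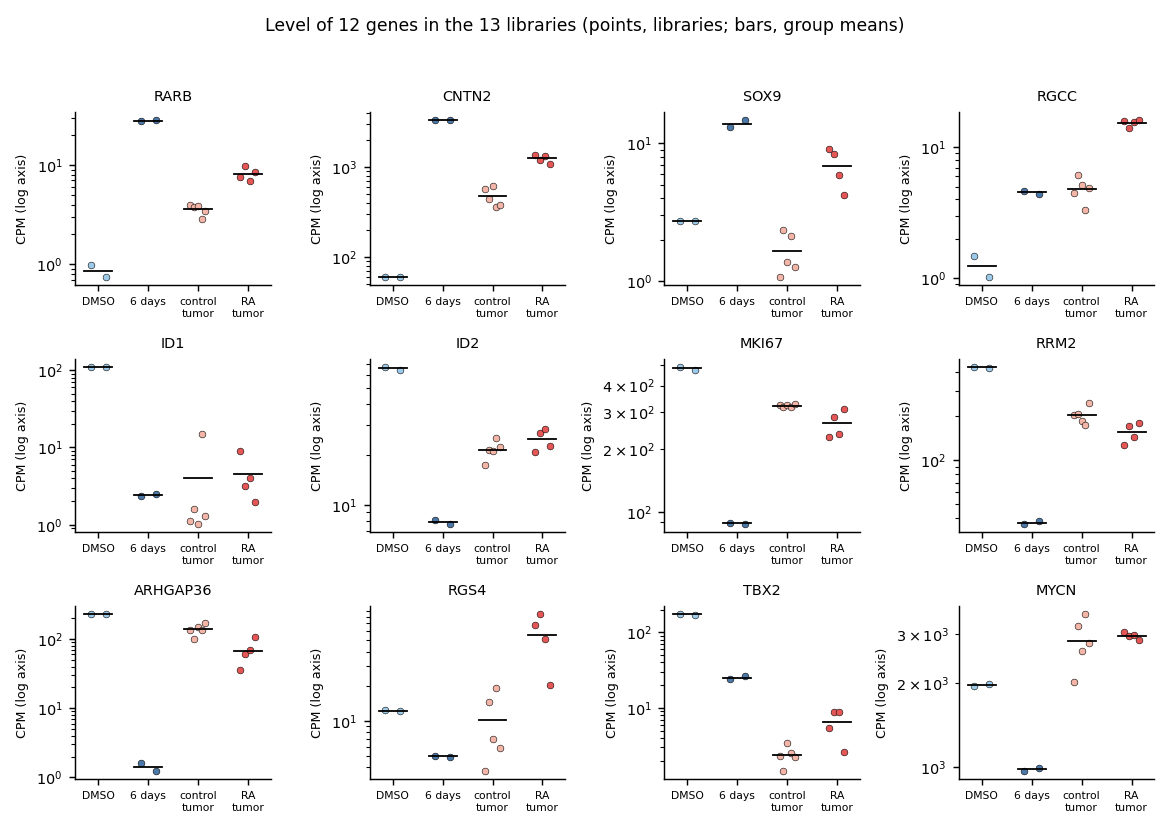
CPM of 12 genes on log axes in DMSO cells, 6 day cells, control tumors and RA tumors, with a point per library and a bar at the group mean. RARB, CNTN2, SOX9 and RGCC are higher in all RA tumors than in any control tumor, while ID1, ID2 and MYCN overlap between the tumor groups.

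Of a list of neuronal differentiation genes, a part rose in culture and 1 was called higher in tumors. The list does not hold all neuronal genes: NGFR and ELFN1, given above, also rose by over 2-fold in tumors and are not on it. CNTN2, an adhesion molecule of growing axons, was at 60.7 and 60.5 CPM with DMSO and 3284 and 3307 CPM at 6 days. Control tumors were at 563, 444, 614, 359 and 379 CPM and RA tumors at 1356, 1205, 1331 and 1071 CPM, with no overlap. The effects were 5.76 ± 0.21 in culture and 1.39 ± 0.14 in tumors (FDR 0.000153), and the difference was −4.37 ± 0.25. Of 29 neuronal differentiation genes, 13 rose and 0 fell in culture, against 15.7% and 9.15% of all genes, and 1 (CNTN2) rose in tumors, against 0.427%. The difference was lower for 12 and higher for 0, against 13.1% and 7.78% of all genes. The tumor effect was above 0 for 26 of the 29, against 48.2% of all genes. Of the 29, 14 passed the FDR upward, all but CNTN2 at under 2-fold. The share of all genes that did so is not given, so this count does not set the list apart. STMN4, a microtubule regulator of neurons, was at 26.6 to 34.5 CPM in control and 35.7 to 48.8 CPM in RA tumors (0.43 ± 0.08), against a rise of 3.12 ± 0.13 in culture. NCAM2 was at 0.82 ± 0.37 in tumors (FDR 0.234) and rose by 4.54 ± 0.56 in culture. The summed level of the list was 6259 to 6280 CPM with DMSO, 15413 to 15577 CPM at 6 days, 5550 to 6390 CPM in control tumors and 7309 to 8381 CPM in RA tumors.

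Axon guidance and synapse genes behaved less uniformly. Of 47 guidance genes 14 rose and 9 fell in culture, 1 rose in tumors, and the difference was lower for 11 and higher for 9, where all genes had 15.7% and 9.15% in culture and 13.1% and 7.78% in the difference. EPHA3, an ephrin receptor, was the tumor rise (1.10 ± 0.23 against 6.84 ± 0.53), close to the 2-fold limit. Its tumor call was lost without RA tumor 2 (effect 0.88), without control tumor 5 (0.989) and with the replicate block (0.994). PLXNA4 and ROBO2, receptors that steer axons away from semaphorins and SLITs, were at 50.6 to 78.4 and 52.8 to 68.0 CPM in control tumors and at 90.5 to 110 and 79.5 to 138 CPM in RA tumors. Neither pair of groups overlaps, both effects stayed under 2-fold (0.63 ± 0.09 and 0.90 ± 0.13), and the culture rises were 6.04 ± 0.19 and 5.20 ± 0.21. Of 38 synapse genes 12 rose and 2 fell in culture, 0 were called in tumors by edgeR, and the difference was lower for 10 and higher for 2. In tumors 9 passed the FDR upward and 2 downward at under 2-fold, counts given without the share of all genes that did so. DLG2, a scaffold of the postsynaptic density, went from 3.52 and 3.65 to 272 and 270 CPM in culture and from a range of 7.45 to 9.01 to one of 9.40 to 15.8 CPM in tumors (0.66 ± 0.12), and SYT2, a calcium sensor of vesicle release, fell in culture by 3.03 ± 0.22 and was at −0.40 ± 0.12 in tumors (FDR 0.0725).

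Nearly all cell division genes fell in culture and had a called difference, which holds the culture fall with its sign turned. All G1/S and DNA replication genes tested but CCND1 and CDK6 fell in culture (45 of 47), against 9.15% of all genes. The difference was higher for the same number, against 7.78% of all genes. Of 55 G2/M genes 54 fell in culture and the difference was higher for 54, with BUB3 the exception. List medians were −2.29 and −2.41 in culture and −0.26 and −0.21 in tumors. There 0 of the 102 were called by edgeR and 20 passed the FDR downward at under 2-fold, a count given without the share of all genes that did so. The tumor effect was below 0 for 45 of 47 and 53 of 55, against 51.6% of all genes, and these genes share libraries and are not independent. All 45 and 54 genes that fell in culture had a tumor effect bounded within 2-fold. MKI67, the proliferation antigen Ki-67, was at 490 and 477 CPM with DMSO, 89.4 and 88.4 CPM at 6 days, 323, 316, 322, 317 and 328 CPM in control tumors and 228, 284, 237 and 311 CPM in RA tumors. All 4 RA tumors lie below the control tumors (−0.28 ± 0.07, FDR 0.0225, against −2.44 ± 0.10 in culture), with RA tumor 4 just under them. RRM2, a ribonucleotide reductase subunit, was at 203, 207, 186, 174 and 245 CPM in control and 127, 172, 145 and 179 CPM in RA tumors, which overlap (−0.38 ± 0.10), and fell by 3.54 ± 0.15 in culture. E2F7, a repressor of the E2F program, was at 19 to 23.0 CPM in control tumors and 13.0, 14.1, 13.8 and 20.3 CPM in RA tumors, with RA tumor 4 inside the control range (−0.48 ± 0.10 against −3.95 ± 0.16). TOP2A, the mitotic topoisomerase, was at −0.16 ± 0.08 (FDR 0.297) against −2.47 ± 0.12.

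**Figure D4:**
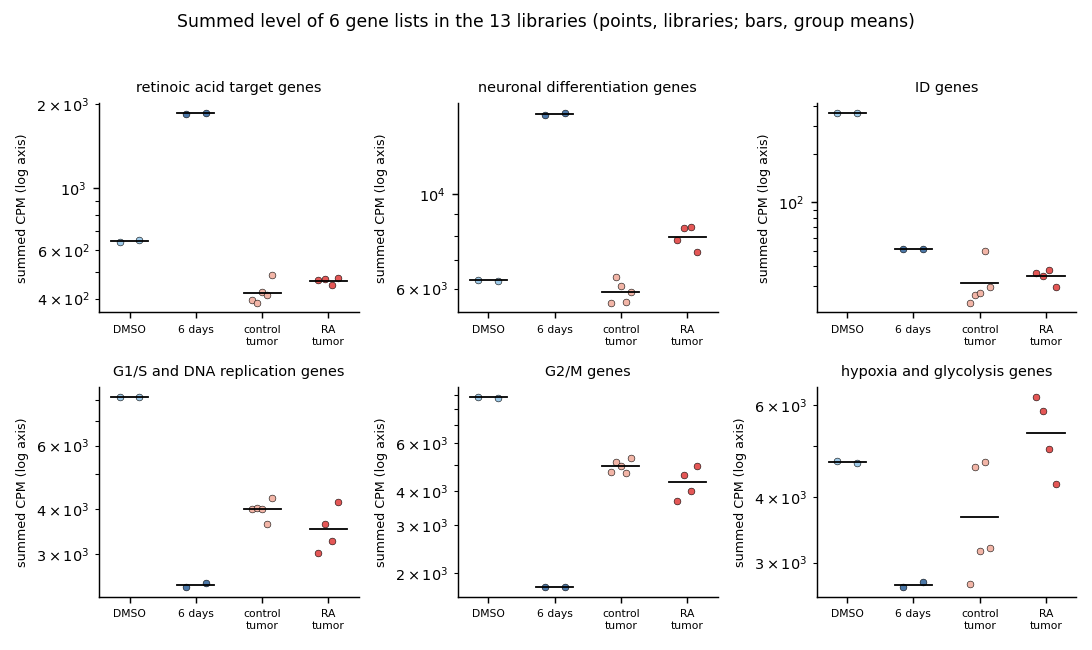
Summed CPM of 6 gene lists on log axes in the 13 libraries, with a point per library and a bar at the group mean. Summed G2/M genes are at 8777 to 8886 CPM with DMSO, 1781 to 1788 CPM at 6 days, 4673 to 5293 CPM in control tumors and 3686 to 4963 CPM in RA tumors, whose highest library overlaps the control tumors.

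MYCN and the nucleolar genes that MYC proteins drive fell in culture and were not called in tumors. MYCN was at 1951 and 1978 CPM with DMSO, 970 and 992 CPM at 6 days, 2012, 3205, 2597, 3533 and 2785 CPM in control tumors and 3040, 2937, 2975 and 2853 CPM in RA tumors. The RA tumors lie inside the control range (0.06 ± 0.11, FDR 0.832), and the difference was 1.06 ± 0.20. Both the culture fall of MYCN and its difference lie close to the 2-fold limit. Its difference call was lost without control tumor 1, where the difference was 0.965. Of 21 genes on the list 19 fell in culture, 0 were called in tumors by edgeR (2 passed the FDR downward at under 2-fold), and the difference was higher for 18. Over all genes, 9.15% fell in culture and 7.78% were higher in the difference. RRP9 and MYBBP1A, ribosome assembly genes, were at 0.05 ± 0.12 and 0.01 ± 0.06 in tumors and fell by 2.59 ± 0.17 and 1.88 ± 0.10 in culture. ODC1, the first enzyme of polyamine synthesis, fell by 2.02 ± 0.09 in culture and was at −0.24 ± 0.06 in tumors. Among CDK inhibitors CDKN1C, which halts the cycle in differentiating cells, rose by 4.28 ± 0.18 in culture. In tumors it was at 3.6 to 5.81 CPM without and 6.99 to 9.40 CPM with RA, groups that do not overlap (0.79 ± 0.13, FDR 0.000964), and its difference was −3.49 ± 0.22. The difference was higher for 2 and lower for 3 of these 8 inhibitors, against 7.78% and 13.1% of all genes.

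ID genes fell in culture and did not pass the test in tumors. ID1 was at 109 and 110 CPM with DMSO and 2.38 and 2.53 CPM at 6 days. Control tumors were at 1.13, 1.61, 1.03, 14.9 and 1.31 CPM and RA tumors at 9.06, 3.16, 4.02 and 1.99 CPM. All RA tumors lie above 4 of the control tumors and below control tumor 4, and the groups overlap. The effects were −5.47 ± 1.02 in culture and 0.09 ± 0.78 in tumors, and the difference was 5.57 ± 1.28. The spread of ID1 among tumors enters these errors, and without control tumor 4 the tumor effect was 1.73 on the log2 scale. ID2 was at 67.1 and 64.6 CPM, 8.13 and 7.69 CPM, 17.4 to 25.2 CPM and 20.8 to 28.4 CPM in the same order of groups (tumor effect 0.20 ± 0.09, difference 3.26 ± 0.17). ID3 was at 169 and 171 CPM with DMSO, 32.4 and 33.4 CPM at 6 days, 1.19 to 6.42 CPM in control and 1.40 to 3.64 CPM in RA tumors (difference 2.19 ± 0.62). ID4 was at 2.09 to 4.14 and 2.91 to 3.30 CPM in tumors (difference 1.15 ± 0.22). All 4 were called higher in the difference by edgeR, against 7.78% of all genes, and the call of ID1 was lost with DESeq2. Control tumors lay nearer to the 6 day cells than to the DMSO cells for all 4, with a summed level of 23.5 to 49.8 CPM against 364 to 365 CPM with DMSO and 51.1 to 51.2 CPM at 6 days. This compares levels across kits, so kit and setting cannot be told apart in it.

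Other BMP genes followed in part. Of 15 further BMP targets 8 fell and 1 rose in culture, 0 were called in tumors by edgeR (2 passed the FDR upward at under 2-fold), and the difference was higher for 8 and lower for 1. GATA2, a transcription factor of the sympathetic lineage, was at 34.0 and 34.2 CPM with DMSO and 2.74 and 2.08 CPM at 6 days (−3.82 ± 0.39), and 2.7 to 8.20 CPM against 4.08 to 5.74 CPM in tumors (0.28 ± 0.28). SNAI2, a repressor that promotes migration, fell by 3.40 ± 0.31 in culture and was at −0.08 ± 0.18 in tumors. MSX2 fell at least 19.7-fold to 0 counts in culture and was at 0 counts in 6 of the 9 tumors. Of 18 BMP inhibitors and feedback genes, 6 fell and 3 rose in culture, 0 were called in tumors by edgeR (1 passed the FDR downward), and the difference was higher for 5 and lower for 3. GREM1, a BMP trap, was at 3.33 and 3.69 CPM with DMSO and at or under 0.442 CPM at 6 days and in every tumor. SMAD6, which damps BMP signals, was at 90.9 and 93.9 CPM with DMSO, 17.7 and 18.1 CPM at 6 days and under 1 CPM in 7 of the tumors, with 4.79 CPM in control tumor 4 and 2.13 CPM in RA tumor 1, and its difference of 1.96 ± 1.16 was not called. SMAD1, a carrier of the signal, rose by 1.96 ± 0.13 in culture and was at 0.23 ± 0.09 in tumors. SMAD9 was lower at 6 days, by under 2-fold, with 322 and 332 CPM in DMSO cells and 185 and 187 CPM at 6 days. It was at 465 to 577 CPM in control and 487 to 583 CPM in RA tumors, and was called in neither setting. Of 14 receptors and SMADs the difference was higher for 1 and lower for 1. Over all genes, 9.15% fell and 15.7% rose in culture, and the difference was higher for 7.78% and lower for 13.1%.

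Hypoxia and glycolysis genes were mixed in culture and leaned upward in tumors. Their median was −0.34 in culture, 0.67 in tumors and 1.00 in the difference. The tumor effect was above 0 for all 27 tested, against 48.2% of all genes. In culture 5 rose and 6 fell, in tumors 4 rose (CA9, NDRG1, ALDOC and PFKFB4, named after their values were seen) and 9 passed the FDR, and the difference was higher for 9 and lower for 1. Over all genes, 15.7% rose and 9.15% fell in culture, 0.427% rose in tumors, and the difference was higher for 7.78% and lower for 13.1%. NDRG1 and ALDOC also rose in culture, by 1.77 ± 0.50 and 1.84 ± 0.44. LDHA, which makes lactate, was at 963 and 938 CPM with DMSO and 195 and 199 CPM at 6 days, 581 to 995 CPM in control tumors and 803 to 1022 CPM in RA tumors (0.21 ± 0.13, difference 2.48 ± 0.23). HK2, a hexokinase, was at 54.3, 117, 70.5, 146 and 68.1 CPM in control and 207, 171, 145 and 95.9 CPM in RA tumors, which overlap (0.76 ± 0.29, difference 2.04 ± 0.52). CA9, a carbonic anhydrase that hypoxia induces, was at 0.0524 to 0.305 CPM in control and 0.424 to 1.68 CPM in RA tumors (2.54 ± 0.53, FDR 0.00426) and near 0 in cells. EGLN3, an oxygen-sensing hydroxylase, was the exception, with a rise of 3.91 ± 0.51 in culture, 0.82 ± 0.42 in tumors and a difference of −3.09 ± 0.66. Control tumors varied widely here, with summed levels of 2728, 4575, 3151, 4669 and 3203 CPM against 6224, 5843, 4955 and 4237 CPM in RA tumors, and the groups overlap. All 4 tumor calls were lost with the replicate block (FDR 0.0533 for CA9, 0.158 for NDRG1, 0.169 for ALDOC and 0.0795 for PFKFB4). The call of NDRG1 held in 6 of 20 alternatives, that of ALDOC in 7 of 20, that of PFKFB4 in 15 of 20 and that of CA9 in 17 of 19, with DESeq2 the other loss.

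Of 24 cholesterol synthesis genes 1 rose in culture, against 15.7% of all genes, and 0 were called in tumors by edgeR, where 0.427% of all genes rose. The tumor effect was above 0 for 22, against 48.2% of all genes. In tumors 12 passed the FDR upward, all at under 2-fold, a count given without the share of all genes that did so. The median effect was 0.31 against 0.05 in culture. Summed levels were 819 to 1012 CPM in control tumors and 1088 to 1265 CPM in RA tumors, which do not overlap. TM7SF2, a sterol reductase, was lower in the difference (−1.47 ± 0.14), with a culture rise of 1.70 ± 0.11 and a tumor effect of 0.24 ± 0.08 (FDR 0.1).

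Opposite calls were few. TBX2, a transcription factor of the adrenergic core circuit that represses cell cycle inhibitors, was the only such gene over 5 CPM. It was at 175 and 172 CPM with DMSO, 24.3 and 26.1 CPM at 6 days, 2.27, 1.47, 3.39, 2.55 and 2.20 CPM in control tumors and 5.43, 8.72, 8.93 and 2.64 CPM in RA tumors. It fell by 2.78 ± 0.32 in culture and rose by 1.43 ± 0.35 in tumors (FDR 0.034). RA tumor 4 lies inside the control range, and the tumor call held in 7 of 20 alternatives, with an FDR of 0.105 without RA tumor 2. The other 7 were under 5 CPM in all groups and were named after their values were seen. NUDT10, GPR139 and GAGE12J fell in culture and rose in tumors, and HORMAD1, PRSS51, ERVE-1 and AC009032.1 did the reverse. GPR139 rested on 27 counts in RA and 3 in control tumors and ERVE-1 on 3 and 28. With voom 0 of the opposite calls were made, and without RA tumor 4 there were 19 in place of 8.

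Of the 62 genes called in tumors and not at 6 days, 17 had a called difference. Only 2 of those also had a 6 day effect bounded within 2-fold, and 0 of these 2 reached 5 CPM. RGS4, which shuts off G protein signals in neurons and was named after its values were seen, was at 3.73, 14.6, 7.03, 19.5 and 5.81 CPM in control tumors and 68.3, 84.3, 51.2 and 20.4 CPM in RA tumors (2.45 ± 0.47, FDR 0.013). In culture it went from 12.4 and 12.3 to 5.02 and 4.94 CPM (−1.31 ± 0.75, not called), and the difference was 3.77 ± 0.88. All RA tumors lie above the control tumors, RA tumor 4 by little, and the call was lost with the replicate block (FDR 0.111) and with voom. RBM24, an RNA-binding protein also named after its values were seen, fell by 1.28 ± 0.23 in tumors and was at 0.72 ± 0.28 in culture (difference −1.99 ± 0.36).

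**Figure D5:**
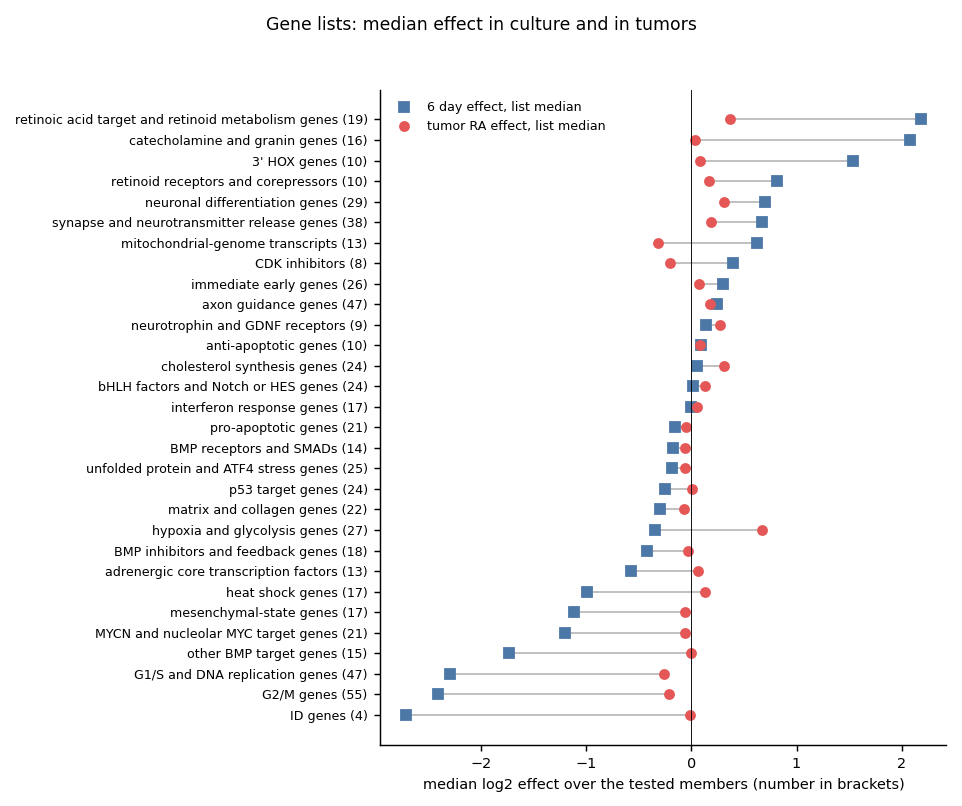
Median log2 effect of 30 gene lists in culture (blue squares) and in tumors (red points), with the number of tested members in brackets. The culture medians run from −2.71 (ID genes) to 2.18 (retinoic acid target and retinoid metabolism genes), and the tumor medians lie between −0.32 and 0.67.

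Transcription factors and products of the sympathetic lineage differed from each other. Of 13 adrenergic core factors 6 fell and 2 rose in culture, PHOX2A and TBX2 rose in tumors, and the difference was higher for 5 and lower for 1. ISL1 fell by 3.25 ± 0.49 in culture and was at 0.45 ± 0.32 in tumors. Of 16 catecholamine and granin genes 9 rose and 1 fell in culture, 0 were called in tumors by edgeR (3 passed the FDR upward at under 2-fold), and the difference was lower for 9 and higher for 1. PNMT, which makes adrenaline, was at 2.65 and 2.56 CPM with DMSO, 50 and 47.1 CPM at 6 days and 0.611 to 1.08 CPM in all tumors (difference −4.01 ± 0.24). TH, the first enzyme of the pathway, was at 0.713 to 0.948 CPM in control and 1.27 to 1.91 CPM in RA tumors, groups that do not overlap (0.91 ± 0.21), against 3.62 ± 0.35 in culture. Of 9 neurotrophin and GDNF receptors the difference was lower for 3 and higher for 2. Over all genes, 15.7% rose and 9.15% fell in culture, and the difference was lower for 13.1% and higher for 7.78%.

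Of 17 mesenchymal-state genes 8 fell and 2 rose in culture, SOX9 rose and CD44 fell in tumors, the latter in 13 of 20 alternatives, and the difference was higher for 6 and lower for 0. PRRX1, a core factor of that state, was at 11.2 and 11.4 CPM with DMSO, 1.26 and 1.19 CPM at 6 days, 11 to 19.7 CPM in control tumors and 6.32, 11.8, 8 and 19.4 CPM in RA tumors (−0.43 ± 0.27, difference 2.77 ± 0.58). Of 10 3' HOX genes, which retinoic acid induces in the embryo, 6 rose in culture, 0 were called in tumors by edgeR, and the difference was lower for 5. HOXB5 rose at least 98.3-fold from 0 counts in culture, to 4.56 and 4.04 CPM, and was at or under 0.102 CPM in every tumor, where its effect could not be bounded (−0.50 ± 1.39). Among 24 bHLH, Notch and HES genes the difference was lower for 7 and higher for 4. For these 3 kinds of list, all genes had 15.7% rises and 9.15% falls in culture, and 13.1% lower and 7.78% higher in the difference. NHLH1, a factor of young neurons, rose by 3.36 ± 0.10 in culture and was at 0.11 ± 0.06 in tumors, and NOTCH1 fell by 2.21 ± 0.36 and was at 0.33 ± 0.29.

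Cell death and stress genes showed mixed differences, where all genes had 7.78% higher and 13.1% lower. Of 21 pro-apoptotic genes the difference was higher for 6 and lower for 4, and 0 were called in tumors by edgeR (3 passed the FDR). HRK and BMF, which neutralize BCL2 proteins, rose by 2.19 ± 0.16 and 2.20 ± 0.18 in culture and were at −0.19 ± 0.10 and −0.11 ± 0.14 in tumors. BCL2, the survival protein, was at 8.60 and 8.53 CPM with DMSO, 2.41 and 1.96 CPM at 6 days, 15.6 to 21.3 CPM in control and 18.6 to 23.0 CPM in RA tumors (0.11 ± 0.10, difference 2.08 ± 0.21). Of 10 anti-apoptotic genes the difference was higher for 2 and lower for 1, and of 24 p53 targets for 9 and 5. TP53INP1 rose by 2.81 ± 0.20 in culture and was at −0.12 ± 0.13 in tumors. Of 17 heat shock genes the difference was higher for 7 and lower for 2, with DNAJB1 at 0.39 ± 0.18 in tumors and −1.42 ± 0.27 in culture. Against 7.78% higher and 13.1% lower of all genes, unfolded protein and ATF4 stress genes had 3 higher and 4 lower of 25, immediate early genes 2 and 2 of 26, interferon response genes 2 and 0 of 17, and matrix and collagen genes 4 and 2 of 22. All 13 transcripts of the mitochondrial genome had a tumor effect below 0 (median −0.32) against a culture median of 0.62, and the difference was lower for 3, with MT-CYB at −0.45 ± 0.11 in tumors and 1.82 ± 0.16 in culture. Their summed level was 31787 to 54433 CPM over all tumors except RA tumor 4, at 29343 CPM, and the groups overlap.

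Among protein-coding genes over 5 CPM the lowest differences belonged to genes nearly absent from DMSO cells. NOS1, a neuronal nitric oxide synthase, and BPIFC, a lipid-binding protein gene, had no DMSO count and were up at least 361-fold and 955-fold at 6 days. BPIFC was at 2.94 to 6.26 CPM in control and 4.60 to 6.60 CPM in RA tumors (0.24 ± 0.18), so control tumors already held it, and NOS1 was at or under 0.305 CPM in all tumors. CRB1, a polarity gene, had 1 count over both DMSO libraries and reached 183 and 185 CPM at 6 days. In tumors it was at 3.61 to 5.69 CPM without and 5.85 to 10 CPM with RA, groups that do not overlap (0.65 ± 0.16, FDR 0.0252). SKAP1 and SKAP2, adaptors of immune signaling, LAPTM5, a lysosomal protein of blood cells, ANGPT1, a ligand of vessel receptors, and RFPL1 reached 49.8, 8.95, 19.7, 70.2 and 15 CPM on average at 6 days, had 1 to 3 counts with DMSO, and were not called in tumors. Of the highest differences besides ARHGAP36 and ID1, KIF21B, a neuronal kinesin, was at 74.3 and 77.0 CPM with DMSO, 1.59 and 1.38 CPM at 6 days, 43.9 to 64.6 CPM in control and 42.1 to 57.7 CPM in RA tumors (difference 5.54 ± 0.24). PGF, a growth factor of vessels, fell by 4.19 ± 0.72 in culture and was at 0.71 ± 0.41 in tumors. CBLN4, EBF2, PDZRN4, IL12RB2 and ARPIN-AP3S2 were also among them. EBF2 had 16 DMSO counts and 0 at 6 days, a fall of at least 4.77-fold, and its difference call held in 12 of 20 alternatives. EBF2 and IL12RB2 were at 4.92 and 5.07 CPM on average in control tumors and at 0.234 and 0.997 CPM with DMSO, and IL12RB2 fell in culture from 69 to 2 counts.

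Markers of neuroblastoma summed to 3777 to 4350 CPM in cells and 3426 to 5121 CPM in tumors over 12 genes. MYCN alone was at 970 to 3533 CPM of these, and DBH was at 0 CPM in DMSO library 1. The sum hides members that differ in direction. GATA3 was at 316 CPM in both DMSO libraries and 31.9 to 50.1 CPM in control tumors. STMN2 was at 174 and 172 CPM with DMSO and 417 to 506 CPM in control tumors. Other cell types were looked for because mouse RNA that resembles human RNA could be counted, and no step that removes mouse reads is given in the sources used here. Of 11 fibroblast markers 10 were tested, with sums of 59.3 to 152 CPM in control and 63.5 to 77.2 CPM in RA tumors, against 152 to 157 CPM with DMSO and 79.8 to 83.0 CPM at 6 days. Control tumor 4 was the highest tumor, with the collagen COL1A1 at 74.0 CPM against 11.1 to 25.2 CPM in the other 8. Of 10 endothelial markers 4 were tested, at 2.28 to 7.45 CPM in all tumors and 145 to 156 CPM at 6 days, where CLDN5 alone reached 144 and 155 CPM in cells that hold no vessel. Of 13 leukocyte markers 5 were tested, at 1.66 to 3.73 CPM in tumors, and of 7 red cell markers 3, at 0.462 to 1.99 CPM. Of 12 skin and muscle markers 5 were tested, at 97.4 CPM in control tumor 1 and 9.01 to 12.4 CPM in the other tumors, with the muscle myosin MYH4 at 47.7 CPM and 0 to 1.08 CPM. Cultured cells held 51.9 and 50.9 CPM of these markers with DMSO and 22.5 and 21.8 CPM at 6 days. The 6 Schwann cell markers tested summed to 8.28 to 10.6 CPM in all tumors, 8.71 and 8.03 CPM with DMSO and 15.1 and 13.9 CPM at 6 days. In bulk samples fewer cells of a type and less RNA per cell cannot be told apart, and the part of these cells in the results was not tested. GATA3, STMN2, COL1A1 and MYH4 were named after their values were seen.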

How the data were processed

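RNA sequencing was compared in 13 libraries of CHP-134 cells and xenograft tumors, grouped by their labels. The authors deposited RSEM expected counts per gene. Per the labels, the tools were Trim Galore 0.4.4, STAR 2.7.10a and RSEM 1.3.3 on hg38, and the strand setting, the annotation release and any removal of mouse reads are not given in the sources used here. Cells and tumors were prepared with different kits.

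The expected counts were rounded and fitted with edgeR 4.0.16 (R 4.3.3, quasi-likelihood, TMM, robust, filterByExpr with a minimum count of 10) over all 17 libraries in 6 groups, so that 11 residual degrees of freedom were shared. The contrast was the tumor effect minus the 6 day effect, and Benjamini-Hochberg FDR was taken over all 25787 genes. A call needed an FDR under 0.05 and more than 2-fold. The scripts were tested on simulated data. A fold against a group at 0 counts is a bound from a floor of 3 counts over the group, and bounds and counting intervals cover counting error only.

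The genes named were protein-coding genes at 5 CPM or more in at least 1 group: the 10 largest and 10 smallest called differences, the 10 largest opposite and the 10 largest shared calls, and the 5 largest tumor calls with a called difference and a 6 day effect bounded within 2-fold (0 met this). Up to 3 members of each gene list with the largest called difference and 20 genes of the study's question were added. Any other is said to be chosen after its values were seen. Members and lists were chosen with earlier results of these data known. Alternatives were DESeq2 1.42.0, limma 3.58.1 voom, RLE scaling, other filters, only the 13 libraries, a replicate block and leaving out each library. Promoter sequences are from RefSeq (GRCh38.p14). A few genes that the rule names are not reported here.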

Additional observations from a re-analysis of the deposited data

Results flagged for a closer look

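In groups of 4 or 5 tumors, 25 values stood apart from the others of their group by Dixon's test, of 338 groups tested, where chance gives 16.9 (1 in 20). Control tumor 4 held 10 of them. It was the highest control tumor for ID1 (14.9 CPM), ID3 (6.42 CPM), the 4 ID genes summed (49.8 CPM), GATA2 (8.20 CPM), SMAD6 (4.79 CPM), MSX2 (0.153 CPM), DBH (5.35 CPM), PDGFRA (2.7 CPM) and IL12RB2 (5.65 CPM), and the lowest for STMN4 (26.6 CPM).

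Control tumor 1 stood apart in skin and muscle markers (97.4 CPM), endothelial markers (7.45 CPM) and LOXL4 (1.62 CPM), and control tumor 2 in ARPIN-AP3S2 (0.948 CPM). RA tumor 1 was highest for NGFR (15 CPM), IL12RB2 (6.38 CPM) and SLC18A1 (0.280 CPM) and lowest for summed BMP receptors and SMADs (1269 CPM). RA tumor 2 was highest for RET (5.15 CPM) and GDF15 (0.515 CPM), and RA tumor 3 for HOXA3 (0.619 CPM). RA tumor 4 was lowest for ENPP2 (1.57 CPM) and highest for E2F7 (20.3 CPM), RRP9 (14.5 CPM) and summed bHLH, Notch and HES genes (1715 CPM).

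The effects of retinoic acid in tumors and in culture differed by edgeR's test of the difference for 2005 genes called higher and 3372 called lower.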

How the results depend on the processing

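Counts of the difference, of the 6 day effect and of 6 day genes with a called difference and no tumor call stayed within 1.5 times under all 20 alternatives, and no named gene reversed. Tumor counts were less stable, and the cause was not tested. The main test pools the spread of cells and tumors, while the voom alternative sets a variance per kind of library. The 157 tumor calls (110 higher, 47 lower) became 101 with only the 13 libraries (23 lower), 77 with voom (69 higher, 8 lower) and, with a stricter filter, 29 lower. Leaving out each library gave 78 to 317 calls, 59 to 238 higher and 19 to 81 lower. The extremes came without RA tumor 2 (78) and RA tumor 4 (317). Calls were 104 without RA tumor 1 and 99 without control tumor 5, rises were 170 without control tumor 4, and falls were 81 without control tumor 2, 24 without RA tumor 3, 30 without control tumor 3 and 29 without either 6 day library.

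The 87 calls shared in direction became 51 with voom and 53 to 154 with a library left out. The 8 opposite calls became 3 with DESeq2, 5 without a filter, 4 with only the 13 libraries, 4 with a stricter filter, 0 with voom and 1 to 19 with a library left out. Genes called at 6 days without a called difference numbered 850 with the stricter filter, which tests fewer genes, against 1407.

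Replicate numbers were not taken as pairs, since same-numbered libraries correlated by 0.005 in cells and by −0.077, 0.067, −0.06 and −0.252 in tumors. With the replicate block the difference had 5061 calls against 5377, and tumors had 86 (58 higher, 28 lower), with 53 shared and 4 opposite. Depth limits the tumor effect of the genes under 1 CPM there.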
